A study of Apis mellifera with 20 samples.

Results

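GB54419, GB50662 and GB47565 are 3 of the 15314 honeybee gene models in the deposited tables. They were chosen by their transcript levels, low in first-instar larvae and in third-instar queen larvae and high in third-instar worker larvae. No threshold was part of that choice. The differences among these 3 kinds of larvae chose the genes and are therefore given as a description, without a test.

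The series measured RNA in larvae of the honeybee Apis mellifera of no stated strain or genetic change, kept in colonies by standard beekeeping. It covers 5 kinds of larvae: instar 1 (L1), taken before the labels assign a caste, and larvae of both castes, queens and workers, of instar 3 (L3) and of instar 5 (L5). Each kind has 2 input libraries, made from fragmented polyadenylated RNA, and 2 libraries of the fragments pulled down with an antibody against N6-methyladenosine (IP), 20 libraries in all. The labels give larvae as the tissue, without numbers of larvae or of colonies, and leave unsaid whether the replicates are separate collections. The p-values therefore cover the spread between these libraries alone, which may be technical.

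A female honeybee egg can give rise to a queen or to a worker, and the diet that nurse bees feed the larva sets which of them develops. Caste can still be turned by a change of diet in the early instars and is fixed later. Larvae go on feeding in the last instar, before they spin a cocoon and pupate. N6-methyladenosine (m6A) is a methyl group that a methyltransferase complex adds to adenosines inside messenger RNA, and proteins that bind it take part in splicing, translation and decay of the transcript. The series compares both transcript level and m6A pulldown between the castes and across larval growth.

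The files do not pair the IDs with gene names. A RefSeq table (assembly Amel_HAv3.1, 12398 genes) held 0 of the 15314 IDs, so no name or role is assigned to the 3 genes. For the same reason the tissue was not checked against marker genes. GB54419 lies on scaffold Group15.9 (315521 to 316958, minus strand, a span of 1438 bp). GB50662 lies on Group13.5 (498272 to 504336, minus strand, 6065 bp). GB47565 lies on Group16.5 (547499 to 548539, minus strand, 1041 bp). Coordinates are as deposited, and the genome build is not given in the sources used here. The 3 genes lie on different scaffolds, and none overlaps another model by the deposited coordinates. Transcripts that reach past the ends of the neighbouring models were not examined.

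Levels are in FPKM as deposited by the authors (mapped fragments relative to the length of a model and to the total mapped in that library). The summed FPKM was 529489 to 674587 in the input libraries and 512177 to 891050 in the IP libraries, and the read depth is unknown. Between 4292 and 5430 models are listed at 0 in an L5 input library, and between 2993 and 3822 in an L1 or L3 input library; whether this touches the levels at L5 was not tested. Folds between larvae were computed after each library was divided by a median-of-ratios factor, and directions are relative to the typical gene.

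GB54419 was the most abundant of the 3 in L1, in L3 larvae of both castes and in L5 workers, and GB50662 was above it in L5 queens. In input it had 163 and 64.8 FPKM at L1. Queens had 199 and 117 FPKM at L3 and 1234 and 1732 at L5, and workers had 17841 and 16286 at L3 and 10594 and 9610 at L5. Every L3 worker library stood far above every L1 and L3 queen library, and the L1 and L3 queen values overlapped. After scaling, the L3 worker mean was 23039 ± 2130 (SD, n = 2) against 129 ± 40.8 in L3 queens and 75.1 ± 40.7 at L1. That is 179-fold the queen mean and 307-fold the L1 mean. On the values as deposited the same ratios were 108 and 150.

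With these values GB54419 ranked 5th among the 15314 models in both L3 worker input libraries, where it held 2.73% and 2.46% of the summed FPKM. It ranked 442nd and 687th in L3 queens, with 0.0309% and 0.0182%. A transcript at the top of the worker library thus had values among the upper models in the queen libraries of the same instar, and not at the floor. The source of these queen values was not tested. In whole larvae, fewer cells that make a transcript and less of it per cell cannot be told apart.

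At L5 the queens took a place between the extremes. Their scaled mean of 1685 ± 479 (SD, n = 2) was 13.1-fold the L3 queen mean, and 0.0731 times the L3 worker mean. As deposited these ratios were 9.41 and 0.0869. The L5 worker mean of 11933 ± 511 was 0.518 times the L3 worker mean. The order of the input levels was L1 and L3 queens, which overlapped, then L5 queens, L5 workers and L3 workers, which did not overlap.

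GB50662 was highest at L5 in both castes. In input it had 11.9 and 1.66 FPKM at L1. Queens had 12.8 and 3.38 FPKM at L3 and 4602 and 3872 at L5, and workers had 1042 and 736 at L3 and 8561 and 8063 at L5. L1 and L3 queens overlapped, and L3 workers, L5 queens and L5 workers followed in that order with no overlap. The scaled L3 worker mean of 1203 ± 326 (SD, n = 2) was 185-fold that of L3 queens, or 110-fold as deposited. The scaled L5 mean was 4772 ± 351 in queens, 735-fold the L3 queen mean, or 525-fold as deposited. That queen fold rests on L3 values of 12.8 and 3.38 FPKM. In workers the scaled L5 mean was 9833 ± 682, 8.18-fold the L3 worker mean, or 9.35-fold as deposited. The queens of L5 thus stood 3.97-fold above the workers of L3.

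GB50662 moved from 4647th and 8041st place among models in L3 queen input to 11th and 13th in L5 queen input. In workers it went from 72nd and 127th to 6th and 9th. By L5 it was among the most abundant transcripts of both castes.

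GB47565 was the least abundant of the 3 in every L3 and L5 library. In input it had 2.74 and 3.38 FPKM at L1. Queens had 0.576 and 2.67 FPKM at L3 and 472 and 241 at L5, and workers had 207 and 228 at L3 and 266 and 253 at L5. Only the L1 and L3 queen libraries were low. After scaling, the inputs of L1 and L3 queens overlapped with each other, and those of L3 workers, L5 queens and L5 workers overlapped among themselves. As deposited, L3 queens lay below L1 without overlap, and L5 workers (1.19-fold) and L5 queens (1.64-fold) lay above L3 workers without overlap. In the IP libraries after scaling, L5 workers were 1.49-fold and L5 queens 2.71-fold the L3 workers, again without overlap. The scaled L3 worker mean was 293 ± 12.1 (SD, n = 2), against 307 ± 23.9 in L5 workers and 398 ± 165 in L5 queens. The L3 worker mean was 214-fold that of L3 queens, or 134-fold as deposited. The L5 queen mean was 291-fold the L3 queen mean, or 220-fold as deposited. The L1 and L3 queen values of this gene are low enough that the queen fold rests on values of 0.576 and 2.67 FPKM.

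**Figure D1:**
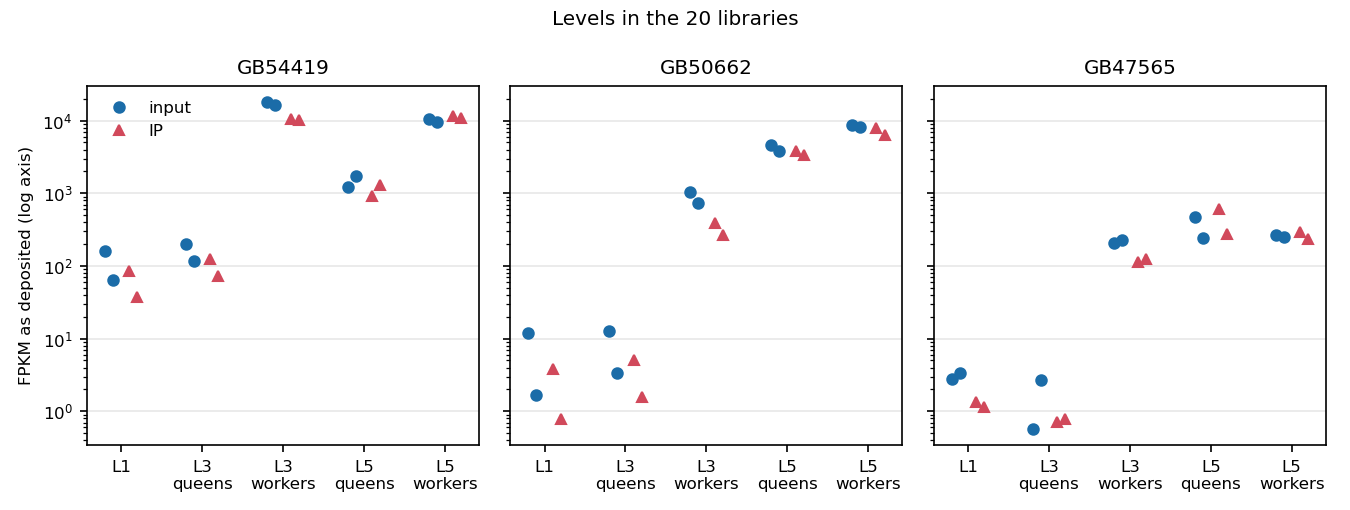
FPKM as deposited (log axis) of GB54419, GB50662 and GB47565 in each of the 20 libraries, by kind of larvae; circles are input libraries and triangles IP libraries, 2 of each per kind. All 3 genes are low in L1 and L3 queens and high in L3 workers. At L5 the castes are far apart for GB54419, nearer but without overlap for GB50662, and overlapping in input for GB47565.

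The choice of these genes can be read from their place among all models. For each model the gap was taken between the lowest L3 worker input and the highest of the 4 L1 and L3 queen inputs, on log2(scaled FPKM + 1). GB54419 had a gap of 7.09, GB50662 of 6.45 and GB47565 of 6.38, and they held places 1, 2 and 3 of 15314. The next model, GB44710, had a gap of 5.59, and 11 models in all (0.0718%) reached 4 log2 units. The opposite shape, with L3 queens above L1 and L3 workers by as much, was seen in 4 models. The same gap in the IP libraries was 6.95, 6.05 and 6.27, and the 3 genes again held the first 3 places, although in another order. In IP, 7 models (0.0457%) reached 4 log2 units. The IP libraries repeat the contrast by which the genes were chosen, and these values are no independent support.

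The low levels of GB50662 were unequal between replicates, in the same direction at L1 and in L3 queens. At L1, replicate 1 was 6.36 times replicate 2 in input and 3.94 times in IP. In L3 queens it was 3.50 times in input and 2.78 times in IP. Only 0.0790% of the 10121 models tested had a larger log2 difference in that direction between the L1 input replicates, and 0.188% between the L3 queen inputs. GB54419 differed in the same direction, by 2.24 times in L1 input, 1.85 times in L1 IP, 1.58 times in L3 queen input and 1.52 times in L3 queen IP. GB47565 did not follow: replicate 1 was 0.720 times replicate 2 in L1 input and 0.200 times in L3 queen input. In L3 workers the replicates of GB54419 and GB47565 were within 1.14 times of each other in input, while GB50662 in replicate 1 was 1.47 times replicate 2.

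The caste difference at L5 was tested, since the rule that chose the genes used no L5 library, although the genes were proposed with results of L5 known. GB54419 was lower in L5 queens than in L5 workers, and both queen libraries lay below both worker libraries. The log2 difference, queens minus workers, was -2.86 ± 0.27 (SE, n = 2 and 2, limma adjusted p = 0.0314 over 9513 genes), a 7.25-fold difference. In that comparison 0.809% of the genes tested were called, 0.61% as lower in queens. The call was lost when any of the 4 L5 input libraries was left out, with log2 differences of -3.16 to -2.57 (limma adjusted p = 0.308 to 0.635). Nor did it pass when 0.1 was the pseudocount (limma adjusted p = 0.0539) or when low models were kept in (limma adjusted p = 0.685). Over all alternatives the adjusted p of limma ran from 0.00235 to 0.685.

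GB50662 had a smaller difference at L5 that did not pass the threshold. Both queen libraries lay below both worker libraries, and the log2 difference was -1.05 ± 0.22 (SE, n = 2 and 2, 95% interval -1.60 to -0.49, limma adjusted p = 0.124). GB47565 gave 0.31 ± 0.34 (SE, n = 2 and 2, 95% interval -0.53 to 1.14, limma adjusted p = 0.74), and its castes overlapped. Its sign turned to -0.13 without L5 queen replicate 1, whose 472 FPKM was the highest input value of this gene. Of the 3 genes, 1 was called, in the direction of higher in workers.

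The IP libraries of L5 gave the same order among the genes. The scaled worker mean was 9.35-fold the queen mean for GB54419, 1.79-fold for GB50662 and 0.549-fold for GB47565. At L3 the worker means of the 3 genes had been 179-fold, 185-fold and 214-fold the queen means in input. Between single libraries these L3 ratios ran from 137 to 246, from 96.3 to 496 and from 125 to 661 in the same order. Genes whose L3 ratios overlapped in this way thus had unlike ratios of means at L5. In the ranking of 10121 models by the worker minus queen difference in input, GB54419 went from place 1 at L3 to place 61 at L5, GB50662 from 2 to 871 and GB47565 from 3 to 7049. The difference between instars was not tested, since the L3 values chose the genes.

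**Figure D2:**
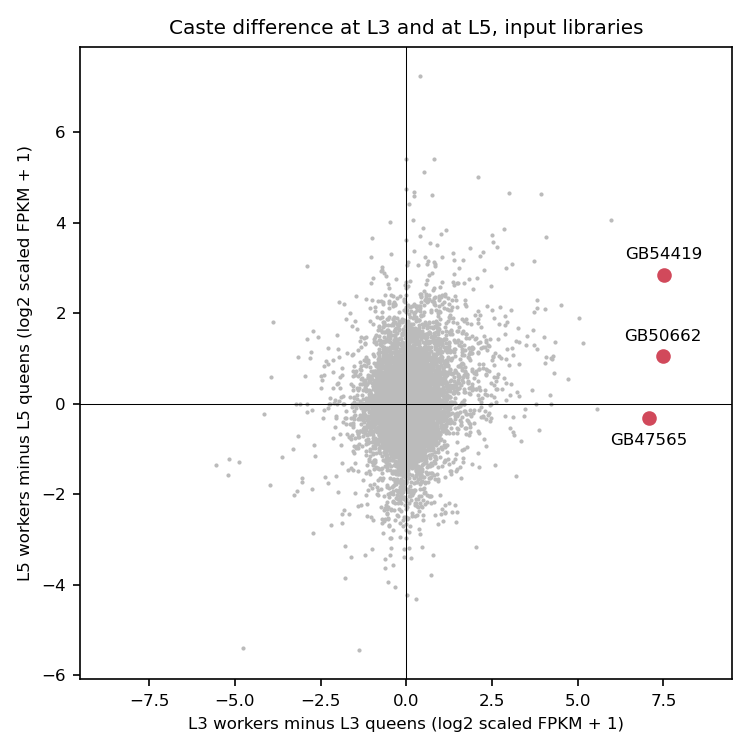
Caste difference in input, workers minus queens in log2(scaled FPKM + 1), at L3 (x axis) and at L5 (y axis) for the 10121 models whose mean scaled FPKM is 1 or more; each grey point is a model and the red points are the 3 genes. The red points lie at the right edge, at 7.07 to 7.51, and spread from -0.31 to 2.85 on the y axis.

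Pulldown over input is the other readout of the series. It gives a value per whole gene model, with no single m6A sites, and none of the 20 libraries is a pulldown without the m6A antibody, so a ratio is not a measured m6A level. Each IP library was set against the input of the same replicate number on log2(scaled FPKM + 1). A match of these numbers is not explained by the labels.

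None of the 3 genes was called as enriched by the pulldown at L5. In L5 queens GB54419 had 913 and 1280 FPKM in IP against 1234 and 1732 in input. Its log2 enrichment there was -0.46 ± 0.27 (SE, n = 2 IP and 2 input, limma adjusted p = 0.675). In L5 workers it had 11432 and 10929 FPKM in IP against 10594 and 9610 in input, and an enrichment of -0.05 ± 0.27 (limma adjusted p = 0.942). GB50662 had 3762 and 3390 FPKM in queen IP and 7788 and 6368 in worker IP. Its enrichment was -0.27 ± 0.21 in queens (limma adjusted p = 0.772) and -0.44 ± 0.21 in workers (limma adjusted p = 0.328). GB47565 had 599 and 271 FPKM in queen IP and 296 and 236 in worker IP. Its enrichment was 0.23 ± 0.42 in queens (limma adjusted p = 0.925) and -0.17 ± 0.42 in workers (limma adjusted p = 0.869).

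Few genes of any kind were called in these tests. Of 10188 genes, limma called 0% in L5 queens, where 916 genes had an unadjusted p under 0.05, and 0.265% in L5 workers. The difference in enrichment between the L5 castes, queens minus workers, was -0.41 ± 0.38 for GB54419 (95% interval -1.29 to 0.47). It was 0.17 ± 0.30 for GB50662 (-0.52 to 0.86) and 0.40 ± 0.60 for GB47565 (-0.98 to 1.78), each with a limma adjusted p of 1.00. There too limma called 0% of the genes, with 301 at an unadjusted p under 0.05. The signs of most of these enrichments depended on the scaling. With upper-quartile scaling, which moved the median of all genes to 0.51 in queens and 0.60 in workers, each of the 3 genes had a positive value in workers and in queens.

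Across all larvae, GB54419 and GB50662 lay below the median ratio of all models in 10 of 10 pairs of libraries, and GB47565 in 8 of 10. GB54419 had a log2 ratio below 0 in 10 of 10 pairs, from -0.58 to -0.05, and GB50662 in 10 of 10, from -1.15 to -0.16. GB47565 was below 0 in 7 of 10 pairs, with a range of -0.71 to 0.42. On this scaling the median of all 10375 models lay between -0.03 and 0.10 in every pair. The signs of these ratios at L1 and L3 share the input libraries that chose the genes and are given without a test.

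Abundant models as a class had low ratios at L1 and L3. In L3 workers, the 718 models with a mean of at least 100 scaled FPKM in input had median log2 ratios of -0.45 and -0.48. GB54419 had -0.45 and -0.37 there and GB47565 had -0.54 and -0.53, close to this median. GB50662, with -1.10 and -1.15, lay lower: only 24.5% and 24% of the abundant models were below it. In FPKM as deposited, GB50662 had 393 and 263 in L3 worker IP against 1042 and 736 in input. At L5 its ratios were -0.22 and -0.33 in queens and -0.36 and -0.57 in workers. On log2(scaled FPKM + 1) no other pair of libraries gave GB50662 a ratio as low as the L3 worker pairs. Without a pseudocount the IP was 0.466 and 0.449 times the input in L3 workers after scaling and 0.477 times in L1 replicate 1, and as deposited L1 replicate 1 was lowest, at 0.323 against 0.378 and 0.358. What part the abundance of a transcript has in its ratio was not tested.

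In L5 queens GB54419 had ratios of -0.36 and -0.58, where abundant models had medians of 0.0011 and -0.14. There, 14.8% and 16.7% of the 581 abundant models were below it. In L5 workers GB54419 had -0.12 and -0.05, above the medians of -0.15 and -0.32 of the abundant models. At L1 and in L3 queens it also lay above the medians of the abundant models in every pair. GB47565 had 0.42 and 0.03 in L5 queens, above the medians there, and -0.07 and -0.33 in L5 workers, on either side of the medians there. Its L3 queen ratios of 0.25 and -0.71 rest on input values of 0.576 and 2.67 FPKM and differ more than those of any other kind of larvae.

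**Figure D3:**
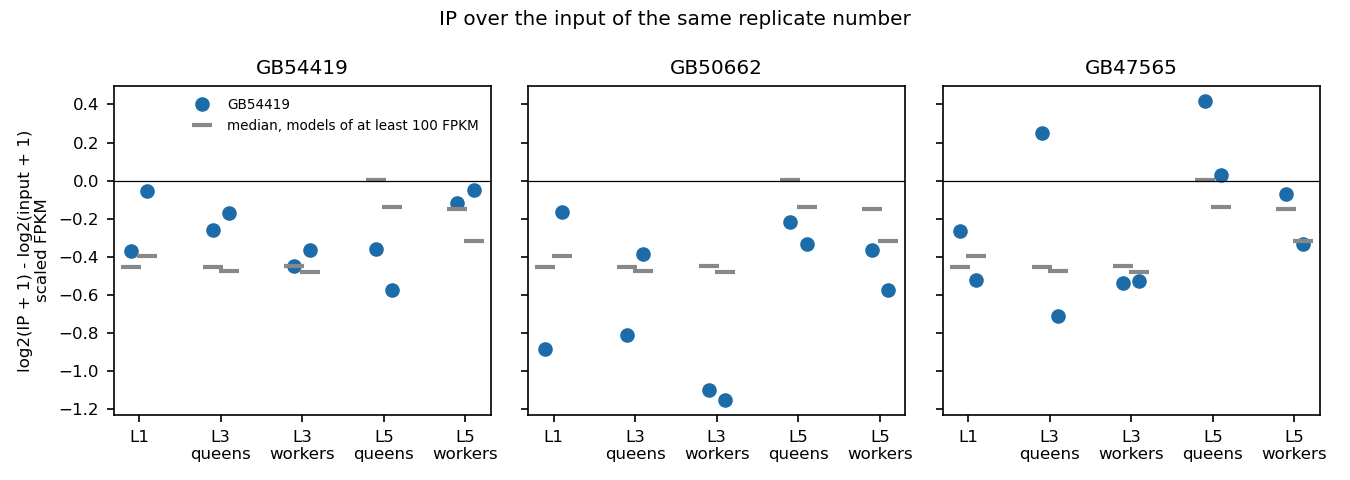
Log2 ratio of IP to input, on log2(scaled FPKM + 1), for each gene in the 10 pairs of libraries of the same replicate number (blue points), with the median of the models of at least 100 scaled FPKM in that kind of larvae (grey bars). GB50662 is lowest in L3 workers, at -1.10 and -1.15, and the ratios of GB54419 lie below 0 in all 10 pairs.

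The 3 genes held places 1, 2 and 3 of 10121 models by the L3 difference, so their neighbours could only have smaller ones. The models nearest to the genes on their scaffolds were therefore set beside all models. Up to 5 models on each side on the same scaffold were taken: 8 around GB54419, where the scaffold holds only 3 models after it, and 10 around each of the others. Of these, 7, 7 and 5 had a mean of at least 1 scaled FPKM. Their median log2 difference between L3 workers and L3 queens was 0.05, -0.09 and -0.03, beside 0.02 for all 10121 models. At least a 2-fold higher mean in workers was seen for 1, 0 and 1 of them, and a 2-fold lower one for 0, 1 and 0, while 6.41% and 3.67% of all models differed by as much.

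The model before GB54419, GB54452 (313145 to 315226, plus strand, 295 bp away), had 3.56 and 4.28 FPKM in L3 queen input and 1.13 and 3.13 in L3 worker input. The model after it, GB54418 (317416 to 321518, minus strand, 458 bp away), stayed under 1 FPKM in all 10 inputs. GB50662 lies between GB50663 (494050 to 497661, minus strand), with 221 and 226 FPKM in queens of L3 and 102 and 114 in workers as deposited, a log2 difference of -0.34 after scaling, and GB50661 (505588 to 506470, minus strand), with 22.5 and 27.3 against 22.0 and 24.3. After scaling GB50661 had a log2 difference of 0.59 between L3 workers and L3 queens. At L5 it had 15.9 and 18.9 FPKM in queens and 24.7 and 46.5 in workers, which did not overlap. The models next to GB47565, GB47642 (542702 to 544632, plus strand) and GB47643 (548880 to 549249, plus strand), were listed at 0 in all 10 inputs.

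The neighbours with the highest L3 difference were named after their values were seen. GB54417 (321593 to 325774, minus strand, 4635 bp from GB54419) had a log2 difference of 1.29 between L3 workers and L3 queens. Between L5 queens and L5 workers it was -1.15, and both were in the direction of GB54419. They rest on low values: queens had 1.37 and 0.567 FPKM at L3 and 1.64 and 0.913 at L5. Workers had 2.34 and 2.54 FPKM at L3 and 5.39 and 2.45 at L5. The other was GB47563 (554137 to 555270, minus strand, 5598 bp from GB47565). It had 14.3 and 15.3 FPKM in L3 workers against 0.632 and 0.651 in L3 queens. At L5 it had 0.648 FPKM and a value listed at 0 in queens, and 0.62 and a value listed at 0 in workers, where GB47565 stayed high. It was thus high in L3 workers alone among the 5 kinds of larvae, a pattern that GB47565 shares at L3 and not at L5.

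**Figure D4:**
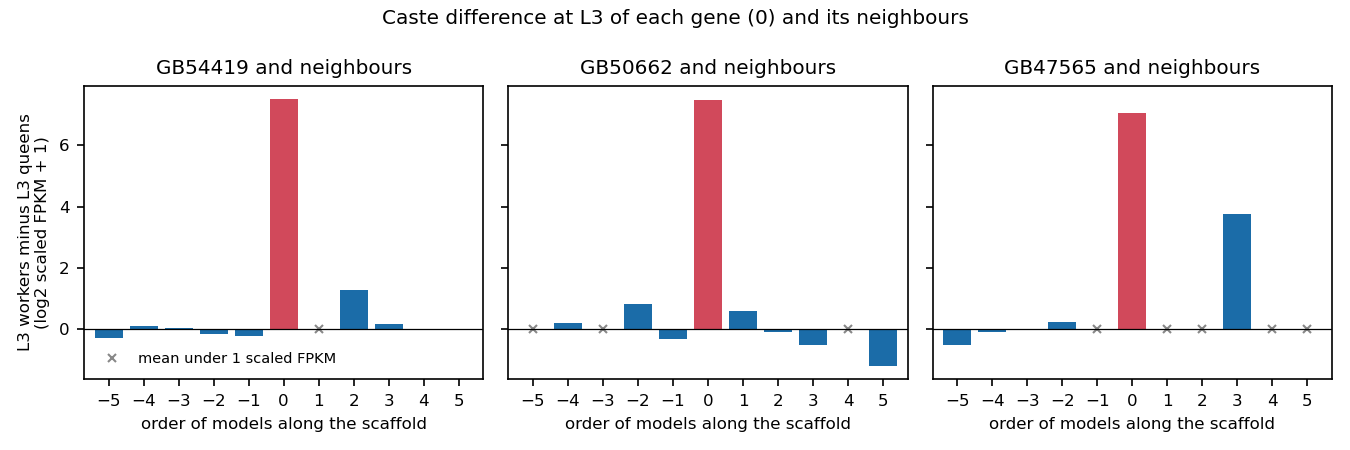
Difference between L3 workers and L3 queens in input (y axis, log2 of scaled FPKM + 1) for each of the 3 genes (red, position 0) and up to 5 models on each side in scaffold order (blue); crosses are models with a mean under 1 scaled FPKM. The genes, chosen by their L3 levels, stand at 7.07 to 7.51, and the highest neighbour, GB47563, at 3.78.

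The likeness of other models to each gene was measured by Pearson's r on log2(scaled FPKM + 1) over the 10 input libraries, among the 10121 models. These are descriptions of 10 libraries in 5 kinds, and r measures shape and not size. GB40945 (Group1.9, 18164 to 25032, minus strand) was most like GB54419 in input, with r = 0.99. In the 10 IP libraries its r was 0.97, and 4 other models had a higher one. Queens had 6.16 and 5.73 FPKM of it at L3 and 7.87 and 15.1 at L5, and workers 27.2 and 24.2 at L3 and 25.2 and 22.5 at L5. GB43825 (Group8.8, 718333 to 722522, minus strand, overlapping another model and so uncertain) followed with r = 0.98 in input. In IP its r was 0.94, and 23 other models had a higher one. Its queens had 96.9 and 89.1 FPKM at L3 and 525 and 399 at L5, and its workers 1124 and 1192 at L3 and 1073 and 1176 at L5. Both thus had L5 queens below L5 workers, as GB54419 did, with smaller ranges.

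For GB50662 the most like models were GB52671 (GroupUn188, 36850 to 48103, minus strand) and GB52212 (Group6.14, 682272 to 686656, plus strand), each with r = 0.99 in input. In the IP libraries their r was 0.91 and 0.93, and 336 and 226 other models had a higher one. As deposited, GB52671 ranged only from 39.5 to 89.2 FPKM and GB52212 from 558 to 977, a far smaller range than that of GB50662. The likeness is one of order after scaling, and it does not hold in full as deposited. There GB52212 had 857 and 730 FPKM at L1 and less, 665 and 631, in L3 workers. GB52671 had 55.8 and 46.5 FPKM at L1 and 56.1 and 47.0 in L3 workers. For GB47565 they were GB45701 (Group5.20, 256769 to 259694, plus strand, overlapping another model) and GB43464 (Group2.7, 245470 to 248310, plus strand), each with r = 0.98 in input. In IP their r was 0.98 and 0.93, and 2 and 77 other models had a higher one. Their Spearman's rho in input was 0.70 and 0.81. For GB45701 queens had 9.25 and 8.48 FPKM at L3 and 40.8 and 33.7 at L5, and workers 22.8 and 22.7 at L3 and 38.8 and 23.8 at L5.

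The 3 genes were also set against each other. Over the 10 input libraries r was 0.96 between GB50662 and GB47565, 0.89 between GB54419 and GB47565, and 0.88 between GB54419 and GB50662. In the 10 IP libraries it was 0.97, 0.86 and 0.85 in the same order. These values include the shared step from L3 queens to L3 workers by which the genes were chosen.

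Of the 8 other models with a gap of at least 4 log2 units at L3, GB44710 (Group5.14, 2699689 to 2703239, plus strand) came nearest to the 3 genes. It had 1.33 and 1.24 FPKM at L1, with 4.80 and 5.31 in queens of L3 and 67.5 and 91.2 in those of L5. Workers had 287 and 201 FPKM at L3 and 1031 and 1564 at L5. Its L5 queens lay below its L5 workers, as those of GB54419 did, but its workers were higher at L5 than at L3, as those of GB50662 were. Of the 11 models, 8 stood at least 4 log2 units above the L1 and L3 queen libraries in both L5 worker libraries, and 5 did so in both L5 queen libraries. GB50662 and GB47565 were among those 5, and GB54419, with a gap of 3.09 in L5 queens, was not. The share of all models that pass these L5 limits is not given here. The 11 models were selected by low values in the same L1 and L3 queen libraries. The counts therefore do not show whether a high level at L5 is unusual.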

How the data were processed

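Per the labels' protocols, polyadenylated RNA of larvae was fragmented, pulled down with an m6A antibody, and made into IP and input libraries with a NEBNext Ultra kit. The authors deposited 1 FPKM value per gene model and library, per the file headers. HISAT2 2.1.0 is the tool named in the submitters' processing notes. Which program computed FPKM, and on which annotation, is not given in the sources used here. Low values of library pairs shared no common ratio (at most 1.18% of the models at 1 ratio), so whole reads were not recovered.

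Scaling used median-of-ratios factors, taken from models above 1 FPKM in every library concerned (7511 models for the input, 7901 for the IP and 6947 for all 20 libraries). A pseudocount of 1 was used, models with a mean of at least 1 were kept, and log2 differences are on log2(scaled FPKM + 1), which understates changes of low genes. Folds between larvae are ratios of mean scaled FPKM with no pseudocount, except the fold of the L5 test and the 2-fold limits for neighbours, which are on that log2 scale. Tests used limma 3.58.1 in R 4.3.3 (eBayes with trend, adjustment by Benjamini and Hochberg over all genes, threshold 0.05) on the L5 libraries alone, because they spread more between replicates (over models, the SD of the log2 difference between input replicates was 0.876 and 0.841 at L5 and 0.306 to 0.402 before). The code of the fit was checked on simulated data with independent normal noise, which does not show how far a single call holds. Alternatives were a fit of all libraries, other pseudocounts and scalings, no filter, a replicate block and leaving out each library. Tables were made with pandas 2.3.3 and figures with matplotlib 3.10.9. The genes were proposed, and the tests and rules chosen, with earlier results of these data known. The rule named the 3 genes, the 2 models with the highest r to each, and the nearest model on each side; GB44710, GB47563 and GB54417 were added after their values were seen.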

Additional observations from a re-analysis of the deposited data

How the results depend on the processing

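At L5 the log2 difference of GB54419 kept its direction under all 11 alternatives. It passed with all libraries in 1 fit, a pseudocount of 5, FPKM as deposited, upper-quartile scaling and the replicate block (limma adjusted p = 0.00235), but not with a pseudocount of 0.1 (-2.86, limma adjusted p = 0.0539), without the filter on low values (-2.86, limma adjusted p = 0.685) or without any 1 of the L5 input libraries (-3.16 to -2.57). GB50662 stayed negative and GB47565 was called under none of them (-0.13 to 0.74 with 1 library left out). A library left out leaves its caste with 1 input, assumed to vary like the other caste. The genes called between L5 castes, 77, numbered 1150 with all libraries, 3 with a pseudocount of 0.1, 0 with no filter, 415 with the replicate block and 0 with any library left out. The replicate deviations of the L5 queen and worker inputs correlated at 0.15, and the labels do not say what the numbers share, so the block is not taken as pairing; it changed no call of the 3 genes.

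None of the 9 enrichment values of the 3 genes was called under any of 135 alternative fits, and their signs turned as follows. With FPKM as deposited, the caste difference of GB50662 was -0.0028, and GB54419 and GB47565 in L5 workers were 0.15 and 0.028. With upper-quartile scaling, L5 queens gave 0.0044 for GB54419 and 0.20 for GB50662, and L5 workers 0.52, 0.13 and 0.40 for GB54419, GB50662 and GB47565. Without 1 library, GB47565 ran from -0.38 to 0.84 in L5 queens and from -0.21 to 1.01 between castes, and GB54419 from -0.16 to 0.047 in L5 workers. Genes called in L5 queens, 0, became 368 with all libraries, 1 as deposited, 14 with upper-quartile scaling, 351 with no filter, 1 with the replicate block and 0 to 6 without 1 library. Those in L5 workers, 27, became 1734, 55, 1028 and 594 in the same order up to no filter, 1 with a pseudocount of 5, and 0 to 142 without 1 library. Those between castes, 0, became 11 with all libraries, 1 with a pseudocount of 0.1, 45 with no filter and 0 or 1 without 1 library. The cause of these changes was not tested.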
